A study of Mus musculus with 6 samples.

Results

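Kinesin and dynein motor genes were taken by symbol as every row whose name starts with Kif and a digit, Klc1 to Klc4, Dync, Dynl, or Dctn1 to Dctn6, which gave 65 of the 23235 genes listed. Sorted by role, they were 12 mitotic kinesins, 38 transport motors (kinesin families, cytoplasmic dynein and its cofactor dynactin), 8 ciliary motors and 7 others, among them a Kif4 pseudogene and rows shared by Dynlt1 copies. The tables came from RNA sequencing of 6 libraries of mouse primary cortical and hippocampal neurons. In the HDAC2 knockdown, 2 libraries came from neurons given shRNAs against HDAC2, a class I histone deacetylase. The Sp3 knockdown also had 2 libraries, from neurons given shRNAs against Sp3, a zinc finger factor that binds GC-rich promoter letters, and 2 control libraries completed the design. In every group the neurons were taken from embryos at day 15 and kept for 17 days in culture, with 1 uM AraC, a drug against dividing cells, on day 5 and a lentivirus on day 12. No source used here says what the control virus carried. Whether the 2 libraries of a group were grown separately is not stated, so p-values may measure technical spread only.

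Kinesins are ATP-driven motors, most of which walk toward the plus ends of microtubules and so carry vesicles, mitochondria and protein complexes outward along axons, whereas cytoplasmic dynein with dynactin carries cargo back toward the cell body. Heavy chains hold the motor domain, and light, intermediate and light intermediate chains attach cargo or adaptors. A separate set of kinesins builds and moves the mitotic spindle of dividing cells, and several of these have also been described in developing neurons.

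Values are the authors' FPKM, read fragments scaled for transcript length and for library size, with 1 value for each group, so no spread between libraries can be shown. Depth is unknown. Among genes at or above 1 FPKM the median log2 fold change was 0.32 in HDAC2 knockdown and -0.13 in Sp3 knockdown, so changes below are log2 fold changes over control minus that median, written as value ± the standard error implied by the authors' test statistic. "Rose", "fell" and "passed" are used where that value over its error gave a normal p under 0.05 after Benjamini-Hochberg adjustment over all tested genes. With 2 libraries a group this normal approximation is lenient, so these p-values are not printed. The q printed beside a value is the authors' own, for the fold change before the median was subtracted. Hdac2 had 12.3 FPKM in HDAC2 knockdown against 49.4 FPKM in control, and Sp3 had 5.82 FPKM in Sp3 knockdown against 15.5 FPKM in control. The knockdowns were not separate in these genes. Sp3 had 26.7 FPKM in HDAC2 knockdown and rose (0.47 ± 0.089, authors' q listed as 0). Hdac2 had 38.8 FPKM in Sp3 knockdown, where the authors called it lower (q = 0.00598) but it did not pass (-0.22 ± 0.11). All 13 neuron markers found had at least 4.09 FPKM in control, and all 9 microglia markers were under 1 FPKM there. The 11 astrocyte markers summed to 1815 FPKM in HDAC2 knockdown and 541.5 FPKM in Sp3 knockdown, against 632.3 FPKM in control. They did not move one way in Sp3 knockdown, where 3 rose and 6 fell, beside 20.2% and 17.6% of all tested genes. The 14 oligodendrocyte lineage markers summed to 452.1 FPKM in HDAC2 knockdown and 130.9 FPKM in Sp3 knockdown, against 226.0 FPKM in control. In whole cultures, fewer cells of a type and less RNA per cell cannot be told apart.

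In control, transport motors made up the top of the list. Kif5c, a kinesin-1 heavy chain gene of neurons, had the highest level with 337.1 FPKM and ranked 137 among all genes. It was followed by Kif1a (271.9 FPKM) and Kif1b (222.5 FPKM), which carry synaptic vesicle precursors and other organelles, by the light chain gene Klc1 (196.9 FPKM), by the dynein heavy chain gene Dync1h1 (189.9 FPKM) and by Kif5a (148.8 FPKM). These 6 were the members over 100 FPKM, and 32 members had at least 10 FPKM. Mitotic kinesins lay lower, between 1.09 FPKM (Kif14) and 8.83 FPKM (Kif11), and Kif2b was listed at 0 in every group. Only 5 of the 65 members stayed under 1 FPKM in every group. Without values per library, no spread can be given to say which neighbours in this order differ.

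**Figure D1:**
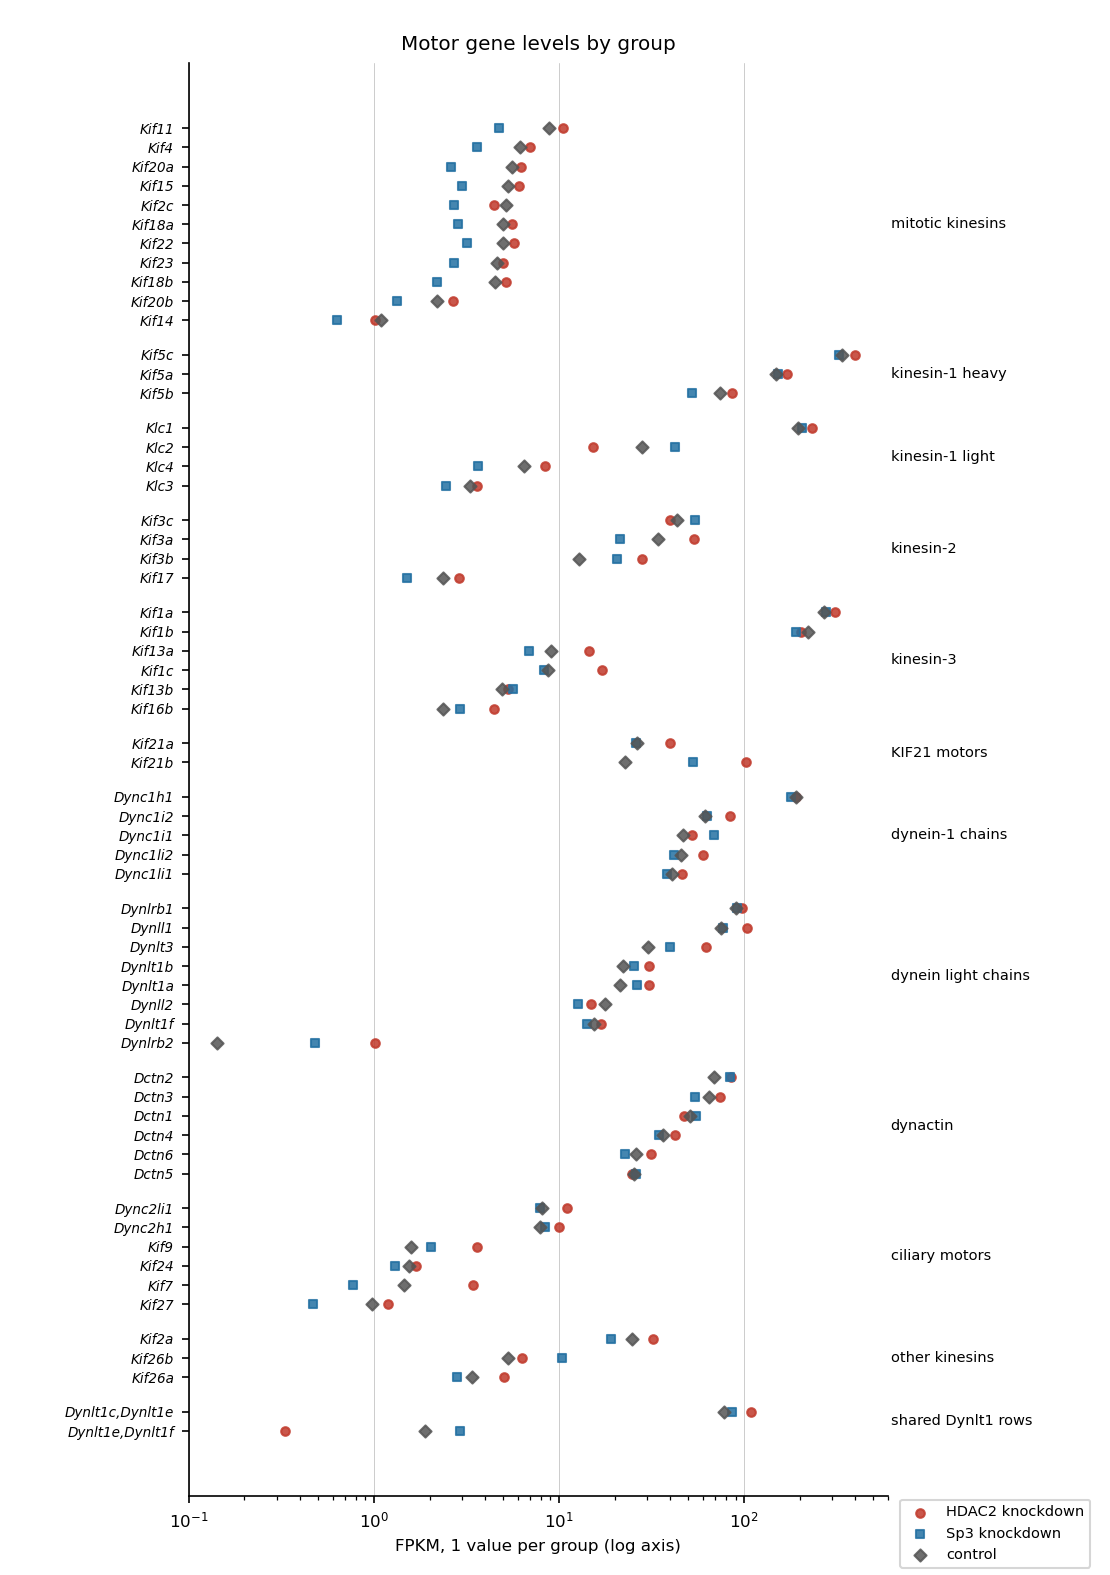
Authors' FPKM (log axis, 1 value per group) of the 60 members with at least 1 FPKM in some group, by role and ordered by control level. Squares of Sp3 knockdown lie left of control for all 11 mitotic kinesins shown, from Kif11 (4.77 FPKM in Sp3 knockdown against 8.83 FPKM in control) to Kif14 (0.632 FPKM in Sp3 knockdown against 1.09 FPKM in control), while the transport motors of highest level overlie each other.

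In HDAC2 knockdown the authors' deposited table tested 55 members and called 12 at q under 0.05, 11 higher and 1 lower, where 28.2% of all tested genes were called, 24.6% higher and 3.6% lower. Relative to the median gene 7 members passed, 5 higher and 2 lower, beside 17.8% of all genes, 10.2% higher and 7.59% lower. None of those 5 higher calls was kept at adjusted p under 0.01. In Sp3 knockdown the authors' deposited table tested 58 members and called 27, 7 higher and 20 lower. Of all tested genes 39.3% were called there, 13.2% higher and 26.1% lower. Relative to the median gene 33 passed, 15 higher and 18 lower, beside 37.8% of all genes, 20.2% higher and 17.6% lower. Mitotic kinesins made up 11 of those 18 lower members. Upper-quartile scaling left 10 higher and 18 lower, for which no share of all genes is given here. Both tables share the control libraries. With a t distribution of 2 degrees of freedom in place of the normal distribution no member passed in either comparison, so every rise and fall below rests on the normal approximation.

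Every tested mitotic kinesin was lower in Sp3 knockdown. Kif11, the motor that slides spindle microtubules apart, had 4.77 FPKM in Sp3 knockdown against 8.83 FPKM in control and fell (-0.76 ± 0.13, q = 7.26e-11 in the authors' deposited table). Kif20a, needed for cell division after chromosome separation, had 2.61 FPKM in Sp3 knockdown against 5.58 FPKM in control, the strongest fall of this set (-0.96 ± 0.17, q = 5.82e-09 in the authors' deposited table). Its deposited locus is shared with Brd8 and Cdc23, so reads of these genes may not be told apart. Kif18b, which acts at the plus ends of astral microtubules, had 2.18 FPKM in Sp3 knockdown against 4.49 FPKM in control (-0.91 ± 0.20, q = 1.82e-06 in the authors' deposited table). Kif2c, which takes microtubules apart at centromeres, had 2.72 FPKM in Sp3 knockdown against 5.16 FPKM in control (-0.79 ± 0.20, q = 2.8e-05 in the authors' deposited table). The other 7 also fell, by 0.52 to 0.69 on the log2 scale. On a log2(FPKM + 1) scale the values of the lowest, Kif14 and Kif20b, shrank to -0.24 and -0.34. They were Kif18a, which dampens chromosome movement, Kif15, a second motor of spindle bipolarity, the chromosome-bound motors Kif4 and Kif22, and Kif14, Kif20b and Kif23, which act in cytokinesis. The authors' deposited table likewise called all 11 lower, as it did 26.1% of tested genes. Their median was -0.68, beside -0.0021 over all tested genes, and their summed level was 29.6 FPKM in Sp3 knockdown against 53.5 FPKM in control.

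The same 11 genes did not pass the test in HDAC2 knockdown in either direction, where 10.2% of tested genes were higher and 7.59% lower. Kif11 had 10.6 FPKM in HDAC2 knockdown against 8.83 FPKM in control (-0.054 ± 0.23, q = 0.4 in the authors' deposited table). Kif20a had 6.24 FPKM in HDAC2 knockdown against 5.58 FPKM in control (-0.15 ± 0.16, q = 0.456 in the authors' deposited table). Kif2c had 4.47 FPKM in HDAC2 knockdown against 5.16 FPKM in control, the lowest value of the set (-0.52 ± 0.27, q = 0.588 in the authors' deposited table). Their median was -0.13, and 0.18 before the median gene was subtracted. A direct comparison of the knockdowns, which takes both errors, passed for Kif20a alone of the 11 (HDAC2 minus Sp3, 0.81 ± 0.24), with Kif11 just outside (0.70 ± 0.26). That comparison was passed by 14.7% of all genes tested in both, 7.86% higher in HDAC2 knockdown and 6.85% lower. Without subtracting the median gene it passed for 8 of the 11.

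**Figure D2:**
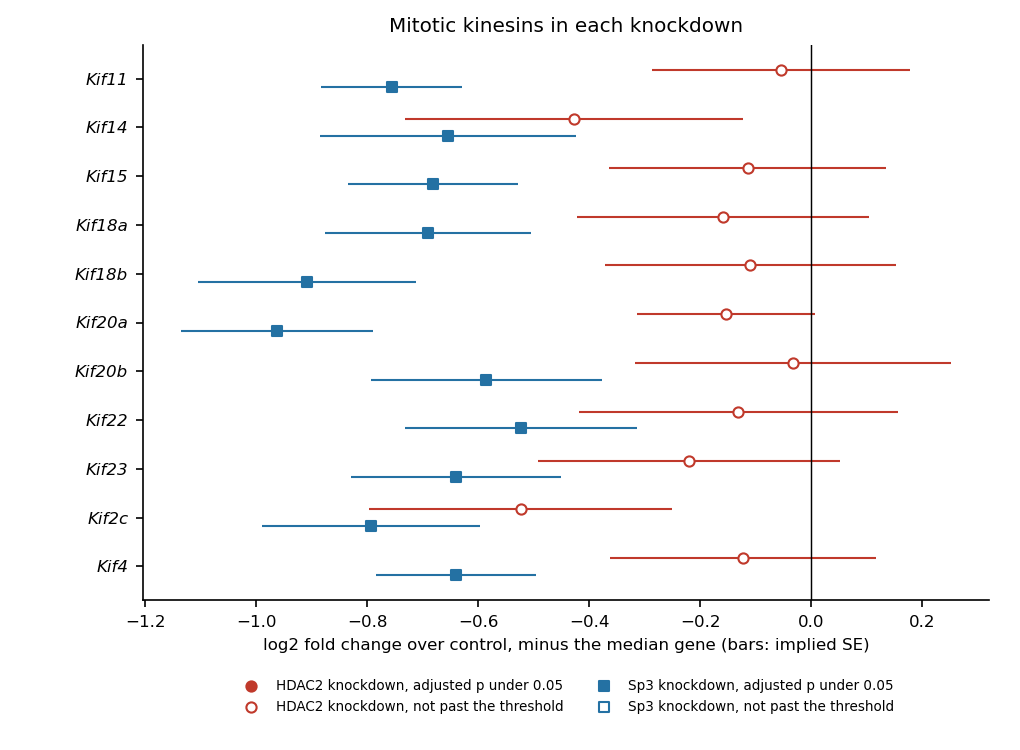
Log2 fold change over control minus the median gene (bars, implied standard error) for the 11 mitotic kinesins above 1 FPKM in control, with filled marks for adjusted p under 0.05. All Sp3 knockdown marks are filled and lie between -0.96 and -0.52, and all HDAC2 knockdown marks are open and lie between -0.52 and -0.033.

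Other genes of mitosis moved with them. Of 23 such genes, all tested, the authors' deposited table called 0 higher and 21 lower in Sp3 knockdown, where 13.2% of all tested genes were higher and 26.1% lower. Relative to the median gene 20 of them fell, beside 17.6% of all genes, and the median was -0.65. Their summed level was 126.6 FPKM in Sp3 knockdown against 222.1 FPKM in control. Top2a, a topoisomerase of dividing cells, had 18.2 FPKM in Sp3 knockdown against 33.6 FPKM in control. Cenpf, a kinetochore protein gene, had 2.47 FPKM in Sp3 knockdown against 7.75 FPKM in control. Ccnb1, the cyclin of mitotic entry, had 8.44 FPKM in Sp3 knockdown against 17.2 FPKM in control. The authors' deposited table called 4 of the 23 higher and 0 lower in HDAC2 knockdown, where 24.6% of all tested genes were higher and 3.6% lower, and relative to the median gene 0 rose and 1 fell. Of 9 tested markers of the oligodendrocyte lineage the authors' deposited table called 7 lower in Sp3 knockdown as well, with the progenitor receptor gene Pdgfra at 20.9 FPKM in Sp3 knockdown against 43.8 FPKM in control. The part that the number of dividing or glial cells has in these values was not tested.

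Promoters of the mitotic kinesins shared letters that the choice by symbol did not use. RefSeq windows on GRCm38.p6, from 250 bases before to 50 bases after a transcription start, were found for 48 members. They were searched on both strands for the cell cycle homology region (CHR, TTTGAA), which in cell cycle genes binds repressor complexes of resting cells, for the CCAAT box, and for the GC box (GGGCGG) of Sp factors. The 11 mitotic windows are not those of the 11 genes that fell in Sp3 knockdown. Kif20a had no window, and Kif2b, at 0 FPKM in every group, is included, with a CCAAT box and no CHR. A CHR was in 9 of 11 mitotic windows (81.8%), in 2 of 32 windows of transport motors (6.25%) and in 17.9% of all 32851 windows. CCAAT was in 7 of 11 mitotic windows, 11 of 32 transport windows and 37.4% of all windows. The GC box was in 6 of 11 mitotic windows (54.5%), 24 of 32 transport windows (75%) and 35.7% of all windows. The 32 transport windows belong to 27 of the 38 transport motors. Klc2, Kif21b and Dynll2, described below, are among those without a window. A match is a description of letters, and says nothing of a factor being bound. Some members have several overlapping windows, so windows are not independent. Shown here are the 150 bases before the start of the 4 mitotic kinesins whose CHR lies in that stretch, at chr19:37376232-37376381 (+) for Kif11, chr9:122950931-122951080 (+) for Kif15, chr7:127042421-127042570 (-) for Kif22 and chr4:117178773-117178922 (-) for Kif2c. Kif26b, at chr1:178528975-178529124 (+), follows as a non-mitotic kinesin that holds all 3 motifs and was higher in Sp3 knockdown. Capitals mark the CHR, the CCAAT box and the GC box, each as spelled above or as its reverse complement.
Kif11: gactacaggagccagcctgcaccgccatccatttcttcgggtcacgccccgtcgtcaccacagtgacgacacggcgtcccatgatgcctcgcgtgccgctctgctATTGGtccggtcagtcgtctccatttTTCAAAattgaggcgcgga
Kif15: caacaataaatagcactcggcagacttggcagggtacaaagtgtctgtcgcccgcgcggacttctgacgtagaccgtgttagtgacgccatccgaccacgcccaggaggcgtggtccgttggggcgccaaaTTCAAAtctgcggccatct
Kif22: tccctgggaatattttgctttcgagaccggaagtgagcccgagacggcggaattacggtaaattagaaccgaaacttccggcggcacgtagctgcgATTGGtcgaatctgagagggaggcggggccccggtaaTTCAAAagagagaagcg
Kif2c: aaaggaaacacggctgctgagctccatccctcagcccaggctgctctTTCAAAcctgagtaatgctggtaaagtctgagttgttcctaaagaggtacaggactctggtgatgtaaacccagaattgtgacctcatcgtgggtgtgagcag
Kif26b: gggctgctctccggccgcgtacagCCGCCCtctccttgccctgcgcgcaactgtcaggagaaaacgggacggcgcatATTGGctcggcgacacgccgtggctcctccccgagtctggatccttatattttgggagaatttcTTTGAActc
The CHR starts 19 bases before the start site in Kif11 and in Kif15, 17 bases before it in Kif22 and 103 bases before it in Kif2c. In Kif11 and Kif22 a reversed CCAAT stands upstream of it. In Kif26b the CHR begins 9 bases before the start.

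**Figure D3:**
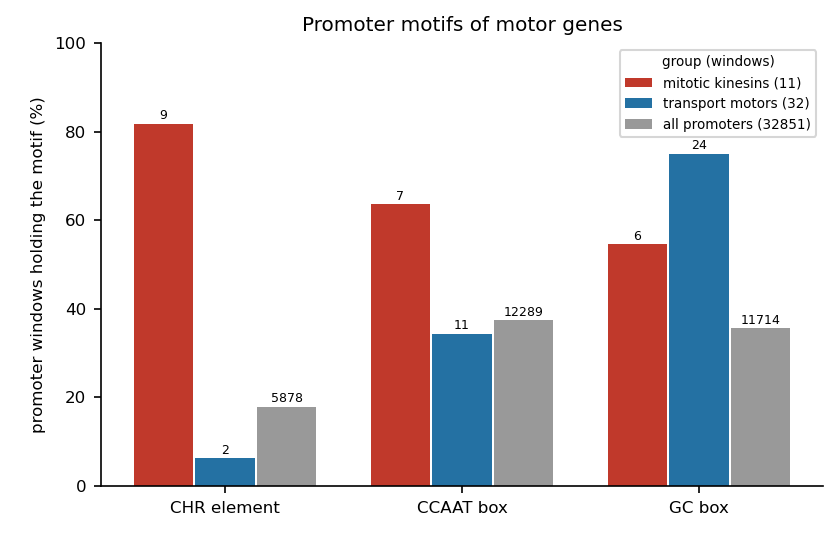
Share of promoter windows holding each motif (percent, number of windows above the bars) for mitotic kinesins, transport motors and all promoters of the table. The CHR is in 81.8% of mitotic windows, against 6.25% of transport windows and 17.9% of all. Mitotic windows include that of Kif2b, and Kif20a had none. Transport windows belong to 27 genes, without Klc2, Kif21b or Dynll2.

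Kinesin-1, the main motor of fast outward axonal transport, had heavy chain values that did not pass in either knockdown, while 2 of its light chain genes moved. Klc2, a cargo-binding light chain gene (chromosome 19, 5107745 to 5118408 in mm9), had 15.4 FPKM in HDAC2 knockdown and 42.1 FPKM in Sp3 knockdown, against 28.2 FPKM in control. It fell in HDAC2 knockdown (-1.19 ± 0.12, q = 1.25e-12) and rose in Sp3 knockdown (0.71 ± 0.064, q listed as 0 in the authors' deposited table). The difference between knockdowns, -1.90 ± 0.13 (HDAC2 minus Sp3), also passed. Klc4 had 3.64 FPKM in Sp3 knockdown against 6.46 FPKM in control and fell (-0.70 ± 0.18, q = 6.08e-05 in the authors' deposited table), while in HDAC2 knockdown it had 8.42 FPKM (0.067 ± 0.25). Klc1, the main light chain of these cultures, had 233.6 FPKM in HDAC2 knockdown and 206.6 FPKM in Sp3 knockdown, against 196.9 FPKM in control, and passed in neither. Klc2 thus took 5.89% of the summed light chain FPKM in HDAC2 knockdown and 16.5% in Sp3 knockdown, against 12% in control. Klc1 and Klc3 share their deposited locus with other genes, and no source used here says whether reads were counted by strand.

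The heavy chains Kif5a, Kif5b and Kif5c summed to 654.9 FPKM in HDAC2 knockdown and 529.4 FPKM in Sp3 knockdown, against 560.2 FPKM in control. Kif5c held 60.7% of that sum in HDAC2 knockdown and 61.3% in Sp3 knockdown, against 60.2% in control. Kif5b, the form found in most cell types, had 52.6 FPKM in Sp3 knockdown against 74.3 FPKM in control (-0.37 ± 0.21, q = 0.0543 in the authors' deposited table). For the most abundant motors the test had little reach. Among the 6 members over 100 FPKM in control the implied standard error ran from 0.45 to 3.37 in HDAC2 knockdown and from 0.23 to 2.93 in Sp3 knockdown, with medians of 1.92 and 1.54. Over all genes of that level the median was 0.37 in HDAC2 knockdown and 0.18 in Sp3 knockdown. Kif5c (0.077 ± 1.95), Kif1a (0.16 ± 1.12), Kif1b (-0.082 ± 2.51) and Dync1h1 (0.058 ± 2.93) in Sp3 knockdown could thus have differed from control by more than 1.5-fold without being called.

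Within kinesin-2, which serves cilia and axonal cargo as a KIF3A and KIF3B dimer with an accessory protein, the partners moved apart in Sp3 knockdown. Kif3b (chromosome 2, 153117151 to 153159125 in mm9) had 28.1 FPKM in HDAC2 knockdown and 20.5 FPKM in Sp3 knockdown, against 12.8 FPKM in control. It rose in HDAC2 knockdown (0.82 ± 0.30, q = 8.85e-04) and in Sp3 knockdown (0.81 ± 0.099, q = 1.68e-10 in the authors' deposited table). Kif3a had 53.6 FPKM in HDAC2 knockdown and 21.5 FPKM in Sp3 knockdown, against 34.5 FPKM in control, and fell in Sp3 knockdown (-0.55 ± 0.13, q = 3.78e-06 in the authors' deposited table). The FPKM of Kif3a over that of Kif3b was 1.91 in HDAC2 knockdown and 1.05 in Sp3 knockdown, against 2.69 in control. In HDAC2 knockdown the value of Kif3a did not pass (0.32 ± 0.36, q = 0.162 in the authors' deposited table). Kif3c, a neuronal partner of KIF3A, had 54.3 FPKM in Sp3 knockdown against 43.5 FPKM in control and rose (0.45 ± 0.18, q = 0.177 in the authors' deposited table), a call lost under upper-quartile scaling and with the median taken over genes of at least 5 FPKM. The deposited locus of Kif3c is shared with a clone-named gene. Kif17, a dendritic motor, had 1.52 FPKM in Sp3 knockdown against 2.36 FPKM in control (-0.50 ± 0.25, q = 0.0339 in the authors' deposited table). Promoters of the diverging pair are shown for the 150 bases before the start, at chr11:53567219-53567368 (+) for Kif3a and chr2:153291266-153291415 (+) for Kif3b, with the CCAAT box and the GC box in capitals as above.
Kif3a: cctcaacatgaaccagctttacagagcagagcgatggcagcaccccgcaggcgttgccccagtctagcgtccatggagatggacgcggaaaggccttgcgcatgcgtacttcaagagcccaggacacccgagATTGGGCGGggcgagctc
Kif3b: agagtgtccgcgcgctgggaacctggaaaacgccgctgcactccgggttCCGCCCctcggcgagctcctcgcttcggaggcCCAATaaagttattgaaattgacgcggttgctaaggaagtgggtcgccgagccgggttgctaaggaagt
Both hold a CCAAT box and a GC box, which overlap in Kif3a and stand apart in Kif3b, and neither holds a CHR.

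Of kinesin-3, whose members carry vesicles and endosomes, the authors' deposited table called 3 of 6 higher in HDAC2 knockdown, beside 24.6% of all tested genes, and 0 passed relative to the median gene, beside 17.8%. Kif1c had 17.0 FPKM in HDAC2 knockdown against 8.70 FPKM in control (0.65 ± 0.25, q = 8.87e-04 in the authors' deposited table). Kif16b, an early endosome motor, had 4.48 FPKM in HDAC2 knockdown and 2.92 FPKM in Sp3 knockdown, against 2.37 FPKM in control, and rose in Sp3 knockdown (0.44 ± 0.17, q = 0.156 in the authors' deposited table). Kif13a, an endosome motor, had 14.6 FPKM in HDAC2 knockdown and 6.87 FPKM in Sp3 knockdown, against 9.03 FPKM in control. It fell in Sp3 knockdown (-0.26 ± 0.11, q = 0.00163) and did not pass in HDAC2 knockdown (0.38 ± 0.25, q = 0.024 in the authors' deposited table). Kif13b had 5.62 FPKM in Sp3 knockdown against 4.96 FPKM in control and rose (0.31 ± 0.12, q = 0.256 in the authors' deposited table), and the calls of Kif13b and Kif16b were lost under upper-quartile scaling.

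Kif21b had the strongest rise of all tested members in each knockdown. This kinesin-4 gene (chromosome 1, 138027977 to 138074591 in mm9) encodes a motor that also limits microtubule growth in neurons. Its level was 102.5 FPKM in HDAC2 knockdown and 53.3 FPKM in Sp3 knockdown, against 22.9 FPKM in control. The change was 1.85 ± 0.67 in HDAC2 knockdown (q = 0.00649) and 1.35 ± 0.14 in Sp3 knockdown (q listed as 0 in the authors' deposited table), and the difference between knockdowns did not pass (0.49 ± 0.69). Its paralog Kif21a had 39.9 FPKM in HDAC2 knockdown and 26.1 FPKM in Sp3 knockdown, against 26.5 FPKM in control. The authors' test failed for Kif21a in HDAC2 knockdown. In Sp3 knockdown it passed at a small size (0.11 ± 0.047, q = 0.787 in the authors' deposited table), a call lost under the same 2 settings as that of Kif3c and with the sign reversed before the median was subtracted (-0.019). Kif21b held 72% of the pair's FPKM in HDAC2 knockdown and 67.1% in Sp3 knockdown, against 46.4% in control.

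Cytoplasmic dynein changed in its intermediate and light chains. Dync1i1, the neuronal intermediate chain that binds dynactin, had 52.3 FPKM in HDAC2 knockdown and 69.1 FPKM in Sp3 knockdown, against 46.6 FPKM in control. It rose in Sp3 knockdown (0.70 ± 0.057, q listed as 0 in the authors' deposited table), and the authors' test failed for it in HDAC2 knockdown. The deposited locus of Dync1i1 is shared with a clone-named gene. Dync1i2, the widely expressed form, had 83.8 FPKM in HDAC2 knockdown and 63.5 FPKM in Sp3 knockdown, against 61.6 FPKM in control. The authors' deposited table called it higher in HDAC2 knockdown (q = 2.95e-10), but it did not pass relative to the median gene (0.13 ± 0.065). In Sp3 knockdown it passed by a small margin (0.18 ± 0.056, q = 0.574 in the authors' deposited table), lost under upper-quartile scaling. Dync1i1 over Dync1i2 in FPKM was 0.625 in HDAC2 knockdown and 1.09 in Sp3 knockdown, against 0.757 in control. The light intermediate chain genes Dync1li1 and Dync1li2, which bind adaptors, passed in neither knockdown, with values between -0.14 and 0.074.

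Among light chains, Dynlt3 rose and Dynll2 fell in both knockdowns. Dynlt3, of the Tctex family, had 62.4 FPKM in HDAC2 knockdown and 39.7 FPKM in Sp3 knockdown, against 30.3 FPKM in control. The change was 0.73 ± 0.25 in HDAC2 knockdown (q = 2.50e-04) and 0.52 ± 0.10 in Sp3 knockdown (q = 6.90e-04 in the authors' deposited table). Dynll2, an LC8 light chain gene, had 14.9 FPKM in HDAC2 knockdown and 12.7 FPKM in Sp3 knockdown, against 17.7 FPKM in control. Its change was -0.57 ± 0.14 in HDAC2 knockdown (q = 0.162), and -0.35 ± 0.099 in Sp3 knockdown (q = 1.68e-05 in the authors' deposited table). The authors did not call Dynll2 in HDAC2 knockdown, where its fold change before the median was subtracted was smaller (-0.25). Its paralog Dynll1 had 103.5 FPKM in HDAC2 knockdown and 76.9 FPKM in Sp3 knockdown, against 75.6 FPKM in control, and passed in neither. Dynlrb1, of the roadblock family, had 97.5 FPKM in HDAC2 knockdown and 91.3 FPKM in Sp3 knockdown, against 90.6 FPKM in control, and passed in neither. The Dynlt1 rows a, b, f and the joint rows are near-identical copies that may share reads, so their separate values are uncertain. The most abundant, joint for Dynlt1c and Dynlt1e, had 109.8 FPKM in HDAC2 knockdown and 86.4 FPKM in Sp3 knockdown, against 78.0 FPKM in control. The authors called this joint row higher in HDAC2 knockdown (q = 8.02e-04), where it did not pass (0.18 ± 0.13). It rose in Sp3 knockdown (0.28 ± 0.085, authors' q = 0.175). Dynlt1a, with 26.3 FPKM in Sp3 knockdown against 21.3 FPKM in control, also rose there (0.43 ± 0.15, authors' q = 0.0999). The Dynlt1b and Dynlt1f rows passed in neither knockdown.

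Dynactin, which activates dynein and links it to cargo, had a summed level of 305.4 FPKM in HDAC2 knockdown and 277.6 FPKM in Sp3 knockdown, against 272.6 FPKM in control. Dctn2, the subunit that holds the complex together, had 84.1 FPKM in Sp3 knockdown against 69.0 FPKM in control and rose (0.42 ± 0.084, q = 0.00331 in the authors' deposited table), though its deposited locus is shared with Mbd6. Dctn1, which encodes the arm that binds microtubules, had 55.1 FPKM in Sp3 knockdown against 50.8 FPKM in control and rose by a small amount (0.25 ± 0.050), a call the authors' deposited table did not make (q = 0.061). For Dctn3 the authors' deposited table gave a lower call in Sp3 knockdown (q = 0.027), but its value relative to the median gene did not pass (-0.12 ± 0.093). No dynactin gene passed in HDAC2 knockdown among the 5 tested, and the authors' test failed for Dctn1 there (47.2 FPKM against 50.8 FPKM in control).

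**Figure D4:**
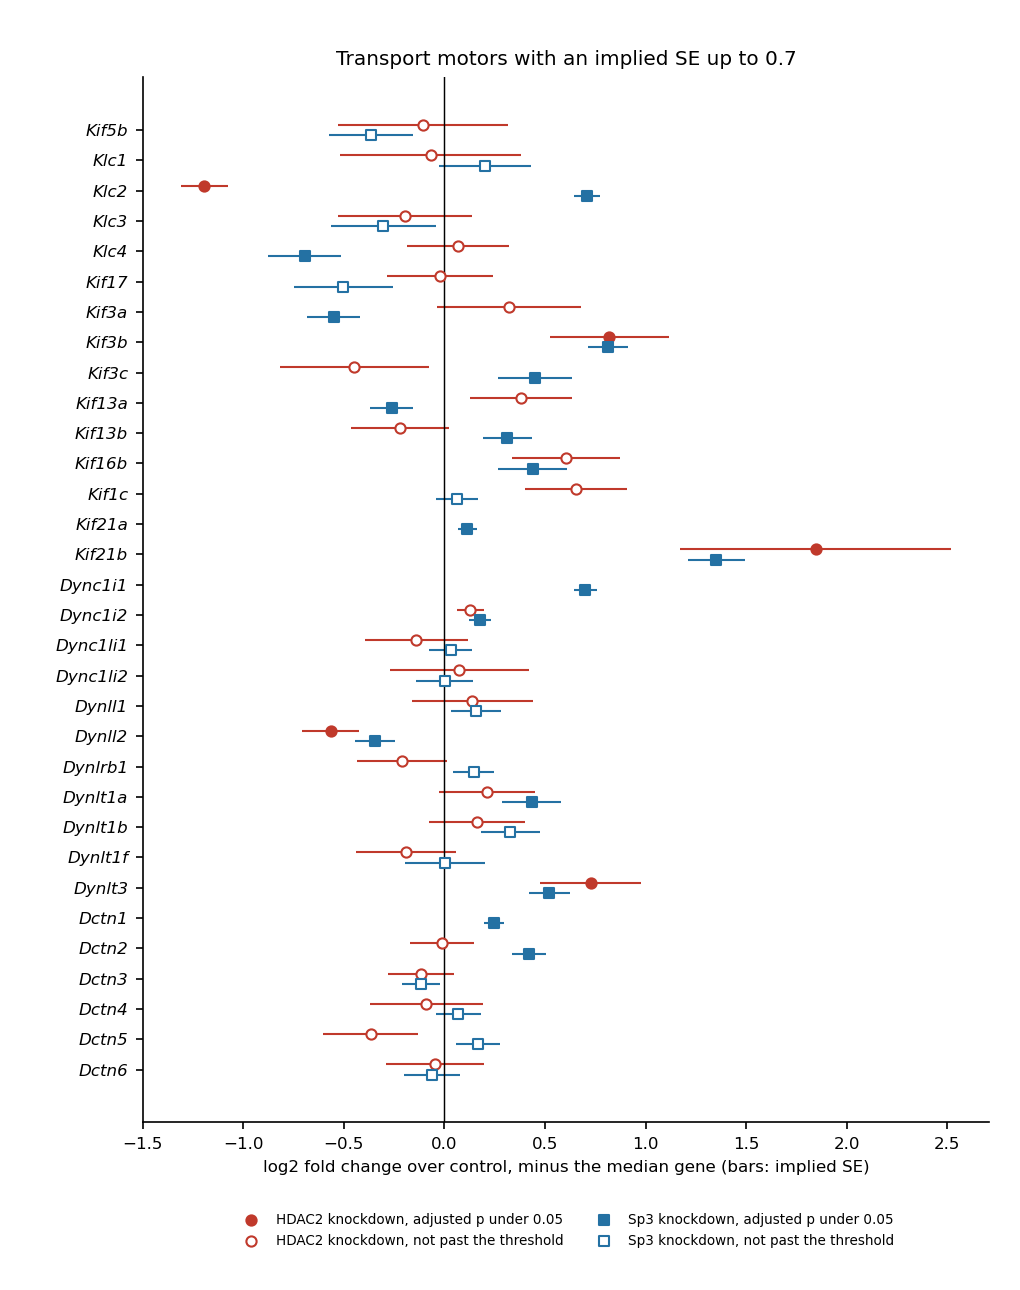
Log2 fold change over control minus the median gene (bars, implied standard error; filled marks, adjusted p under 0.05) for transport motors whose implied standard error was at most 0.7. Klc2 lies on opposite sides in HDAC2 knockdown (-1.19) and Sp3 knockdown (0.71), while Kif21b, Kif3b and Dynlt3 lie to the right in both and Dynll2 to the left in both. Kif21a, Dync1i1 and Dctn1 have a mark in Sp3 knockdown only.

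**Figure D5:**
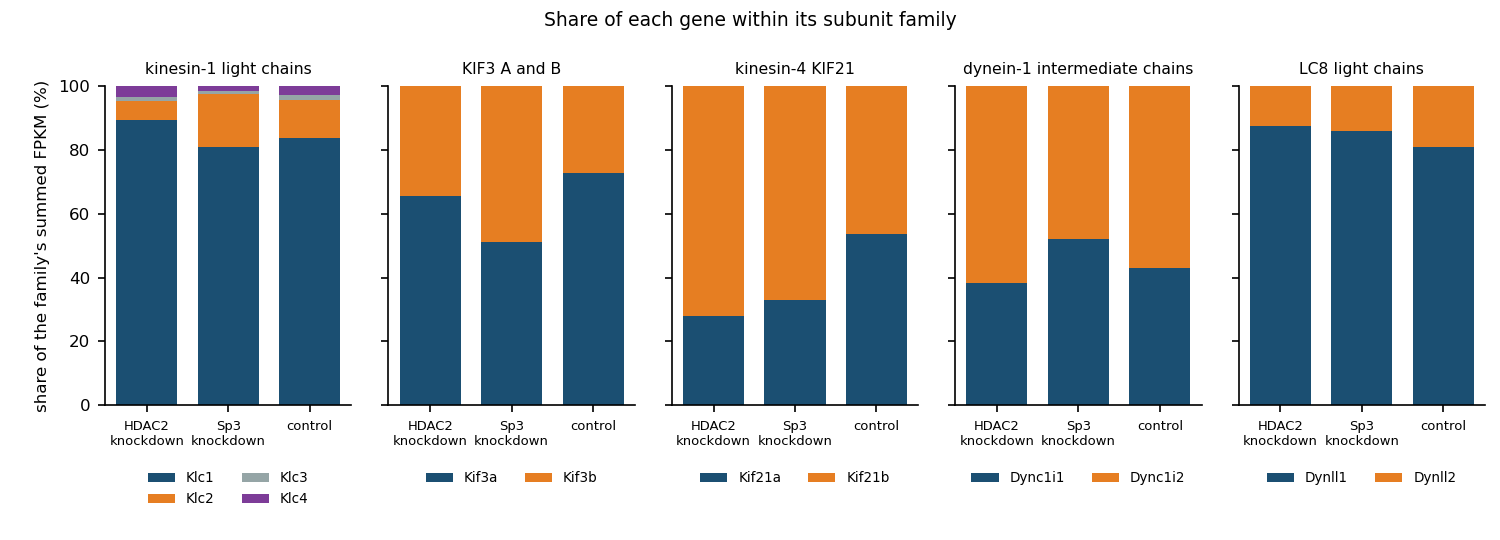
Share of each gene in the summed FPKM of its subunit family (percent) by group, 1 value per group and no error. Kif21b takes 72% in HDAC2 knockdown and 67.1% in Sp3 knockdown, against 46.4% in control, and Kif3b takes 34.4% in HDAC2 knockdown and 48.9% in Sp3 knockdown, against 27.1% in control.

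Of the transport motors as a set, 3 of 34 tested rose and 2 fell in HDAC2 knockdown, near the 10.2% of all tested genes that were higher and the 7.59% that were lower. In Sp3 knockdown 13 of 37 rose and 4 fell, where 20.2% of all tested genes were higher and 17.6% lower. Upper-quartile scaling left 8 of these motors higher and 4 lower. The shares of all genes under that scaling are not given here, so those 8 and 4 have no like share beside them. The authors' deposited table called 7 of 34 higher and 1 lower in HDAC2 knockdown, where 24.6% of all tested genes were higher and 3.6% lower. It called 6 of 37 higher and 6 lower in Sp3 knockdown, where 13.2% were higher and 26.1% lower. Their median was -0.073 in HDAC2 knockdown and 0.14 in Sp3 knockdown, beside -0.0044 and -0.0021 over all tested genes. The 13 neuron markers had a median of -0.30 in HDAC2 knockdown and 0.50 in Sp3 knockdown. Before the median gene was subtracted these medians were 0.021 and 0.37. Relative to the median gene 0 of the 13 markers rose and 2 fell in HDAC2 knockdown, and 6 rose and 0 fell in Sp3 knockdown. The neuron markers did not all move one way by the authors' q, which called 6 higher and 2 lower in Sp3 knockdown. The part of the neuron markers in the values of the transport motors was not tested.

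Ciliary motors were low, at most 11 FPKM in any group. Kif7, which acts at the tip of primary cilia in Hedgehog signalling, had 3.43 FPKM in HDAC2 knockdown and 0.77 FPKM in Sp3 knockdown, against 1.45 FPKM in control. It rose in HDAC2 knockdown (0.93 ± 0.29, q = 2.07e-04) and fell in Sp3 knockdown (-0.78 ± 0.29, q = 0.00692 in the authors' deposited table), and the difference of 1.71 ± 0.41 (HDAC2 minus Sp3) passed. Its deposited locus is shared with a clone-named gene. Kif9, a kinesin of motile cilia, had 3.62 FPKM in HDAC2 knockdown and 2.05 FPKM in Sp3 knockdown, against 1.60 FPKM in control, and rose in HDAC2 knockdown (0.86 ± 0.28, q = 1.83e-04 in the authors' deposited table). Kif27, a relative of KIF7, had 0.472 FPKM in Sp3 knockdown against 0.974 FPKM in control and fell (-0.91 ± 0.37, q = 0.0179 in the authors' deposited table). On a log2(FPKM + 1) scale, which shrinks the changes of low genes, Kif7 stood at 0.58 in HDAC2 knockdown and -0.35 in Sp3 knockdown, Kif9 at 0.55 in HDAC2 knockdown and Kif27 at -0.31 in Sp3 knockdown. The dynein-2 genes Dync2h1 and Dync2li1, which run transport inside cilia, passed in neither knockdown. The 7 markers of ciliated ependymal cells found, which include Dynlrb2, summed to 14.7 FPKM in HDAC2 knockdown and 8.24 FPKM in Sp3 knockdown, against 7.60 FPKM in control. Of these Foxj1, the factor for motile cilia, had 5.44 FPKM in HDAC2 knockdown and 2.90 FPKM in Sp3 knockdown, against 1.35 FPKM in control. The list did not move one way: Mlf1 had 2.05 FPKM in HDAC2 knockdown and 0.922 FPKM in Sp3 knockdown, against 2.46 FPKM in control, and Ccdc153 and Tmem212, under 1 FPKM throughout, also had lower values in both knockdowns. The part of these markers in the values of Kif9 was not tested.

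Of the remaining kinesins, Kif26b moved most. This kinesin without ATPase activity (chromosome 1, 180459255 to 180862988 in mm9) had 6.31 FPKM in HDAC2 knockdown and 10.4 FPKM in Sp3 knockdown, against 5.34 FPKM in control. It rose in Sp3 knockdown (1.09 ± 0.10, q listed as 0 in the authors' deposited table) and did not pass in HDAC2 knockdown (-0.077 ± 0.24), and the difference of -1.17 ± 0.26 (HDAC2 minus Sp3) passed. Kif2a, which takes microtubules apart and limits axon branches, had 32.4 FPKM in HDAC2 knockdown and 19.1 FPKM in Sp3 knockdown, against 24.9 FPKM in control. It fell in Sp3 knockdown (-0.25 ± 0.075, q = 4.37e-06 in the authors' deposited table). The authors' deposited table called it higher in HDAC2 knockdown (q = 1.89e-04), but it did not pass relative to the median gene (0.063 ± 0.089). The difference between knockdowns passed narrowly (0.31 ± 0.12). In all, 5 of 55 members passed the comparison of the knockdowns, namely Klc2, Kif7, Kif26b, Kif20a and Kif2a, beside 14.7% of all genes tested in both. More members passed it without subtracting the median gene, so this count rests on that step.

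Adaptors that join motors to cargo and the microtubules they walk on were also measured. Of 27 listed adaptors and regulators, 21 were tested in HDAC2 knockdown, where the authors' deposited table called 5 higher and 1 lower, beside 24.6% and 3.6% of all tested genes. There 0 rose and 3 fell relative to the median gene, beside 10.2% and 7.59%. The 3 were Kifap3 (67.0 against 108.3 FPKM in control, -1.01 ± 0.37), Grip1 (11.1 against 14.1 FPKM, -0.66 ± 0.13) and Hap1 (52.4 against 53.3 FPKM, -0.34 ± 0.089). Of these the authors called only Grip1 lower (q = 0.0241). In Sp3 knockdown 24 were tested, of which the authors' deposited table called 4 higher and 7 lower, beside 13.2% and 26.1% of all tested genes. Relative to the median gene 9 rose and 5 fell, beside 20.2% and 17.6%. Rhot2, which anchors motors to mitochondria, had 13.8 FPKM in Sp3 knockdown against 22.1 FPKM in control and fell (-0.55 ± 0.11, q = 2.69e-08 in the authors' deposited table). Hook2, of the dynein-linking Hook family, had 7.39 FPKM in Sp3 knockdown against 11.2 FPKM in control and fell (-0.47 ± 0.13, q = 2.76e-05 in the authors' deposited table). Madd, which links kinesin-3 to synaptic vesicle precursors, had 51.1 FPKM in Sp3 knockdown against 38.7 FPKM in control and rose (0.53 ± 0.045, q listed as 0 in the authors' deposited table). In HDAC2 knockdown the dynein adaptor genes Bicd1 (25.6 against 18.5 FPKM in control) and Bicd2 (28.0 against 21.2 FPKM in control) and the dynein regulator gene Nde1 (11.8 against 7.56 FPKM in control) had higher calls from the authors' deposited table but did not pass relative to the median gene.

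Of 26 listed tubulins and microtubule-associated genes 17 were tested in each comparison. Relative to the median gene, 1 rose and 3 fell in HDAC2 knockdown (median -0.31, which is 0.0018 before the median gene is subtracted), beside 10.2% and 7.59% of all tested genes. In Sp3 knockdown 5 rose and 0 fell (median 0.33), beside 20.2% and 17.6%. By the q of the authors' deposited table, 1 was higher and 1 lower in HDAC2 knockdown (24.6% and 3.6% of all tested genes), and 4 higher and 1 lower in Sp3 knockdown (13.2% and 26.1%). Tubb4a, a beta-tubulin gene of neurons and oligodendrocytes, had 24.2 FPKM in HDAC2 knockdown and 46.7 FPKM in Sp3 knockdown, against 32.1 FPKM in control. Its change was -0.72 ± 0.25 in HDAC2 knockdown (q = 0.21) and 0.67 ± 0.11 in Sp3 knockdown (q = 2.43e-05 in the authors' deposited table). Mapre2, a plus-end binding protein gene, had 57.8 FPKM in HDAC2 knockdown and 43.7 FPKM in Sp3 knockdown, against 28.5 FPKM in control, and rose in both. Stmn4, of the stathmin family that binds free tubulin, had 46.6 FPKM in HDAC2 knockdown against 80.9 FPKM in control and fell (-1.11 ± 0.25, q = 0.00778 in the authors' deposited table).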

How the data were processed

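RNA was measured in 6 libraries of 3 groups. TopHat, Bowtie and Cuffdiff, with mm9 as the build, are listed without versions in the submitters' processing notes, and no source used here gives the annotation, strand setting or filters. Each knockdown has a table in which the authors deposited 1 FPKM per group with their test statistic, log2 fold change, p-value and q-value. Control values were equal in both for 100% of genes. A fold against 0 is written as an extreme number, and such genes got no error.

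The statistic runs opposite in sign to the fold change, and the p a normal distribution gives it matched the deposited p-value to within 2.79e-06. The standard error is the log2 fold change over the sign-reversed statistic, and errors over 5 were treated as missing. Fold changes minus their median over genes of at least 1 FPKM, divided by that error, were given a normal two-sided p, an approximation with so few libraries that is used for calls and not printed, and adjusted over all tested genes, 13481 and 13539. Differences between knockdowns used the root of the summed squared errors, over 13277 genes. Since the control enters both and cancels in the difference, that error is not exact. If control error is part of both, it is not smaller than the true error, so real differences may not pass. The procedure was run on simulated data with normal errors of the implied size, drawn separately for each comparison. Such data cannot show how it performs with errors estimated from 2 libraries or with a shared control. Every member could be named. Of other lists, the 3 genes with the smallest deposited p could be named, of which a part is printed. Kifap3, Grip1, Hap1, Ccdc153 and Tmem212 were named outside that rule, to show values that went lower. Members, lists and motifs were chosen with earlier results of these data known. Promoters and symbols came from RefSeq on GRCm38.p6 and coordinates in mm9 from the deposited tables. Python 3.11.15, numpy 2.4.6, pandas 2.3.3, scipy 1.17.1 and matplotlib 3.10.9 were used.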

Additional observations from a re-analysis of the deposited data

How the results depend on the processing

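Adjusted p under 0.01 in place of 0.05 left 2 of 7 calls among members in HDAC2 knockdown, 0 higher and 2 lower. The rises of Kif21b, Kif3b, Dynlt3, Kif7 and Kif9 there were lost, and the falls of Klc2 and Dynll2 stayed. The same threshold left 2 of 5 calls among transport motors in HDAC2 knockdown, and 11 of 17 among transport motors in Sp3 knockdown. With a t distribution of 2 degrees of freedom 0 members, 0 mitotic kinesins and 0 transport motors passed in either comparison. A minimum log2 fold change of 0.5 left 7 of 12 transport motors called in Sp3 knockdown by the authors' q. Without subtracting the median gene, 20 members in place of 5 differed between knockdowns, 8 mitotic kinesins in place of 1 and 7 transport motors in place of 1, and Kif21a in Sp3 knockdown stood at -0.019 in place of 0.11. That last setting was chosen after seeing the data for single genes. The other planned settings (other q thresholds, FPKM filters, adjustment within the table, the median over genes of at least 5 FPKM, upper-quartile scaling) kept every total of calls within 1.5 times. Upper-quartile scaling took the higher calls relative to the median gene in Sp3 knockdown to 8 in place of 13 among transport motors and to 10 in place of 15 among members. On a log2(FPKM + 1) scale 9 of 40 values of single genes moved by more than their standard error, each toward 0. No paired analysis was possible because the files give 1 value per group, and for the same reason no library could be left out in turn. Read depth is unknown, so low levels such as those of Kif14 or Kif27 carry an error that cannot be checked.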

Other observations

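Kinesin-14 motors, which walk toward microtubule minus ends, fall outside the symbol choice. Of the 4 found, the authors' deposited table called 3 lower and 0 higher in Sp3 knockdown, where 26.1% of all tested genes were lower, and 1 higher in HDAC2 knockdown, where 24.6% were higher. In Sp3 knockdown 1 rose and 1 fell relative to the median gene, where 20.2% of all tested genes were higher and 17.6% lower. Kifc2, the most abundant, had 91.6 FPKM in Sp3 knockdown against 71.3 FPKM in control and rose (0.50 ± 0.15), though its q lay just above the threshold in the authors' deposited table. Kifc5b had 1.88 FPKM in Sp3 knockdown against 3.19 FPKM in control (-0.63 ± 0.25, q = 0.0101 in the authors' deposited table). Its close copy Kifc1, a spindle motor, had 2.13 FPKM in Sp3 knockdown against 3.23 FPKM in control (-0.47 ± 0.24, q = 0.0453 in the authors' deposited table), and the copies may share reads.

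Axonemal dyneins, which bend motile cilia, were mostly near the floor, with 10 of the 15 found under 1 FPKM in control. Dnahc5, a heavy chain gene, had 2.03 FPKM in HDAC2 knockdown and 1.38 FPKM in Sp3 knockdown, against 3.42 FPKM in control, and fell in both (-1.07 ± 0.25, q = 0.0104, and -1.18 ± 0.13, q listed as 0 in the authors' deposited table). Dnalc1, a light chain gene, had 14.0 FPKM in HDAC2 knockdown and 9.26 FPKM in Sp3 knockdown, against 6.21 FPKM in control, and rose in both (0.85 ± 0.24, q = 1.32e-05, and 0.71 ± 0.11, q = 9.97e-07 in the authors' deposited table). The roadblock light chain gene Dynlrb2, a gene of ciliated cells, was too low for the authors' test, with 1.02 FPKM in HDAC2 knockdown and 0.479 FPKM in Sp3 knockdown, against 0.142 FPKM in control.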
